A study of Caenorhabditis elegans with 2 samples.

Results

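The regions described here are the places on the X chromosome of Caenorhabditis elegans mid-embryos where chromatin precipitated with tagged COG-1 gave a peak that was not at a tRNA gene. The authors' thresholded list was filtered by the irreproducible discovery rate (IDR), a measure of how alike 2 replicates rank their regions, and it held the 1841 strongest regions of a longer list called on the pooled replicates. A member is a peak of the thresholded list on X whose summit, the base of highest signal, lay more than 500 bp from every annotated tRNA gene. There were 353 such peaks among 427 X peaks and 1841 peaks in all. Signal means the authors' value for a region, whose scaling is not given, and a rank is the place of a peak in the thresholded list by pooled signal, with 1 the strongest. The other 74 X peaks were at tRNA genes. The autosomal peaks away from tRNA genes, 1346 in number, served for comparison. The member closest to a tRNA gene was 658 bp away, the next 1401 bp, and the farthest X peak left out was 295 bp away, so few peaks hung on the distance. None of the 29 tRNA pseudogenes that RefSeq places on X lay within 500 bp of a member (0 of 353).

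COG-1 belongs to the NK6 class of homeodomain proteins, which bind DNA and set cell fates, in the worm those of certain taste neurons and vulval cells. All samples were of 1 group: hermaphrodites of strain OP541, genotype unc-119(tm4063) III with the transgene wgIs541, which carries COG-1 fused at its C-terminus to a GFP-FLAG tag. Whole mid-embryos were taken 3 h after bleaching of eggs for synchronization, their chromatin was sheared by sonication, and an antibody to GFP was used for the precipitation. There were 2 biological replicates, no untagged worms and no input library among the samples analysed here, and the promoter that drives the transgene is not stated in the labels. Embryos of this stage hold many cell types, so a weaker peak and a peak in fewer cells cannot be told apart.

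The X chromosome of the worm has its own regulatory system. In hermaphrodites, which carry a pair of X chromosomes, a condensin-like dosage compensation complex is brought to X by the protein SDC-2 and lowers transcription along the whole chromosome. The complex is loaded at recruitment elements on X, which hold clustered copies of a short motif with the letters CGCAGGG at its centre, and it then spreads to the starts of active genes. Homeodomain proteins in general prefer an AT-rich core, TAATTA, and X also carries fewer genes that are active in the germline than the autosomes do.

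X peaks differed from autosomal peaks in the sequence at their summits. CGCAGGG, on either strand, lay within 50 bp of the summit of 16 of the 353 X peaks (4.53%, 95% exact binomial interval 2.61 to 7.26%) and of 12 of the 1346 autosomal peaks (0.892%, 0.461 to 1.55%). The odds ratio was 5.28 (two-sided Fisher's exact test, p = 2.29e-05, adjusted p = 2.52e-04 over 11 short sequences). The sequences were chosen with earlier results of these data known, which the adjustment does not cover. The test also counts as separate the summits of ranks 29 and 702, which were called in nearly the same region. The 16 members held 17 matches, and 11 of these are printed below from the RefSeq genome of WBcel235, the same assembly as ce11, with 12 bases to either side and the 7 searched letters in capitals. The 11 were picked after their letters were seen, to show the letters that many of them share beyond those searched.
Peak nearest F20B6.9, chrX:4209254-4209284, minus strand: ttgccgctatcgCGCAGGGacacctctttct
Peak nearest cest-16, chrX:6296537-6296567, plus strand: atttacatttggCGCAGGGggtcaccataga
Peak nearest cest-16, chrX:6296565-6296595, plus strand: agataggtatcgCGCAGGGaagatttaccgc
Peak nearest nspc-17, chrX:14525888-14525918, minus strand: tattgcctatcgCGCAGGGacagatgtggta
Peak nearest W02H3.3, chrX:11094214-11094244, minus strand: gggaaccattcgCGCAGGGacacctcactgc
Peak nearest Y41G9A.17, chrX:2997111-2997141, minus strand: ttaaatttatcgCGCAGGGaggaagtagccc
Peak nearest gtr-1, chrX:806663-806693, plus strand: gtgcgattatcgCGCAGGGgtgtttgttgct
Peak nearest ins-39, chrX:1345045-1345075, plus strand: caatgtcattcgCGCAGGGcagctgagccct
Peak nearest R04E5.9, chrX:8811093-8811123, minus strand: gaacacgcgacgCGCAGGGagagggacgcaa
Peak nearest Y41G9A.17, chrX:2997286-2997316, minus strand: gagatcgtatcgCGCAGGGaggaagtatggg
Peak nearest apm-3, chrX:954899-954929, minus strand: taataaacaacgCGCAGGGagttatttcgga
The letters next to CGCAGGG were shared as well. Of the 17 matches, 14 had a G in the place before it (82.4%), 13 a C in the place before that (76.5%) and 10 a T before these (58.8%). On the other side, 11 had an A directly after it (64.7%) and 9 a G in the next place (52.9%).

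Joined, these commonest letters read TCGCGCAGGGAG, which are also the letters known for the motif of dosage compensation recruitment elements. The 11 printed matches differ from these 12 letters at 0 to 2 positions, and the 6 not printed at 2 to 4. Since the flanking letters were read off these members, what follows about the 12 letters is a description with no test. The 12 letters occurred 3 times in the nuclear genome. All 3 places were on X and all 3 lay in peaks of the list: under the peaks of rank 27 (nearest gene start W02H3.3) and rank 29 (in an intron of Y41G9A.17), and under the peak of rank 702, a second summit that was called in nearly the same region as rank 29. Places that differed from the 12 letters at exactly 1 position numbered 29 on X (1.64 per Mb) and 37 on the autosomes (0.448 per Mb). Of those on X, 15 lay in a peak (51.7%) and 19 in a region of the longer pooled list (65.5%). Of those on the autosomes, 0 lay in a peak and 3 in a pooled region (8.11%). Counting positions from 1 at the first T, the commonest differences among the 15 X places in peaks were G12C with 4, G12A with 3, C6A with 2 and T1A with 2. The X peaks covered 1.01% of the bases of X, and the autosomal peaks 0.723% of autosomal bases, tRNA peaks included.

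Several of the strongest members held more than 1 such place. The 4 windows printed here reach 50 bp to either side of the summit, with capitals for stretches that differ from the 12 letters at 2 or fewer positions on either strand.
Peak nearest F20B6.9, chrX:4209251-4209351, plus strand: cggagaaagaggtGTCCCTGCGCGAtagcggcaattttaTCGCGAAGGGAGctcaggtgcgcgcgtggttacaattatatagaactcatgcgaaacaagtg
Peak nearest nspc-17, chrX:14525873-14525973, plus strand: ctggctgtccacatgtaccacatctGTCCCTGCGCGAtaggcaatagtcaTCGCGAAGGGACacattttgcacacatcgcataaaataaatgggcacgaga
Peak nearest Y41G9A.17, chrX:2997042-2997142, plus strand: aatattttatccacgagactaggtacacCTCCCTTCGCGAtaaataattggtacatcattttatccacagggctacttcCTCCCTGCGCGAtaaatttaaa
Peak nearest gtr-1, chrX:806651-806751, plus strand: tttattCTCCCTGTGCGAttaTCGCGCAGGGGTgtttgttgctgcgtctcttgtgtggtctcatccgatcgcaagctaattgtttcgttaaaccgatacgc
In the peak nearest F20B6.9, the 2 places carried G12C and C6A. In the peak nearest nspc-17, they carried G12C on one strand and C6A with G12C on the other. The peak in Y41G9A.17 had C6A at one place and no difference at the other. The peak nearest gtr-1, in intergenic sequence, had G5A at one place, A11G and G12T at the next, and a further place, reaching past the end of the window, with T1A and G12A. Within 200 bp of the summit, 24 of 353 X peaks held at least 1 place with 2 or fewer differences (6.80%), against 19 of 1346 autosomal peaks (1.41%). At least 2 places were found in 11 X peaks (3.12%) and in 0 autosomal peaks. These 11 are not separate places throughout, since 2 pairs among them are summits called in overlapping regions: the pair in mom-1 counted the same 2 places, and the pair in Y41G9A.17 had 1 place in common. In the peak nearest fbxb-58, also among the 11, the places overlap each other on opposite strands.

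The 7 letters alone were also counted along the whole genome. CGCAGGG occurred 301 times on X (17.0 per Mb) and 1329 times on the autosomes (16.1 per Mb), so the letters were about as common per Mb on X. Of the X sites, 33 lay in a peak of the whole list (11.0%), against 29 of the autosomal sites (2.18%), an odds ratio of 5.52 (two-sided Fisher's exact test, p = 3.17e-10; a comparison added after the data were seen). Without peaks at tRNA genes the counts were 29 and 28 and the odds ratio 4.95 (Fisher's exact test, p = 1.63e-08). Some X sites shared a peak, as in the peaks nearest cest-16 and W02H3.3. Both tests count each site as separate, so their p-values are likely too small. For comparison, GAGAGAG sites lay in a peak in 6.78% of cases on X and 6.35% on the autosomes, GCGCGC sites in 6.25% and 5.23%, and TAATTA sites in 0.740% and 0.714%. Other letters were in peaks more often on X. CACACAC sites were in peaks in 10.9% of cases on X and 5.59% on the autosomes. Sites of such repeats overlap one another within a run, so no test is given for them. GTTCGA sites, from the inner promoter of tRNA genes, were in peaks in 1.68% of cases on X and 0.902% on the autosomes (odds ratio 1.87, Fisher's exact test, adjusted p = 3.13e-07 over 11 sequences, peaks at tRNA genes included). CACGTG sites were in 1.30% and 0.819%, which did not pass after adjustment (odds ratio 1.59, Fisher's exact test, adjusted p = 0.0737). These shares stand beside the 1.01% of X bases and 0.723% of autosomal bases in peaks. Peaks at tRNA genes numbered 74 on X and 68 on the autosomes. Away from tRNA genes, GTTCGA was in 2.27% of X summit windows and 4.38% of autosomal ones (Fisher's exact test, adjusted p = 0.166).

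Members with CGCAGGG were most frequent among the strongest X peaks, and 10 of the 16 lay outside gene-start windows. Of the 25 strongest X peaks 7 held it (28.0%), of the next 75 peaks 3 (4.00%), and of the other 253 peaks 6 (2.37%). Among autosomal peaks the counts were 0 of the 25 strongest, 2 of the next 75 (2.67%) and 10 of the other 1246 (0.803%). The signal of the 16 members ran from 79.2 to 361 with a median of 183, whereas the 337 members without it had a median of 108. Their ranks in the whole list ran from 19 to 1783, and the best rank among the 12 autosomal peaks with CGCAGGG was 101. Among the 920 strongest peaks of the list the odds ratio was 12.7 (Fisher's exact test, adjusted p = 1.67e-05). Of the 16 members, 7 were intergenic, 3 lay in introns and 6 in gene-start windows. Outside gene-start windows 10 of 156 X peaks held CGCAGGG (6.41%) against 2 of 544 autosomal peaks (0.368%), an odds ratio of 18.6 (Fisher's exact test, unadjusted p = 1.03e-05; this split was added after the data were seen). Inside gene-start windows, 6 of 197 X peaks (3.05%) and 10 of 802 autosomal peaks (1.25%) did, and this difference did not pass the test (odds ratio 2.49, Fisher's exact test, p = 0.104). Whether the 2 odds ratios differ was not tested.

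**Figure D1:**
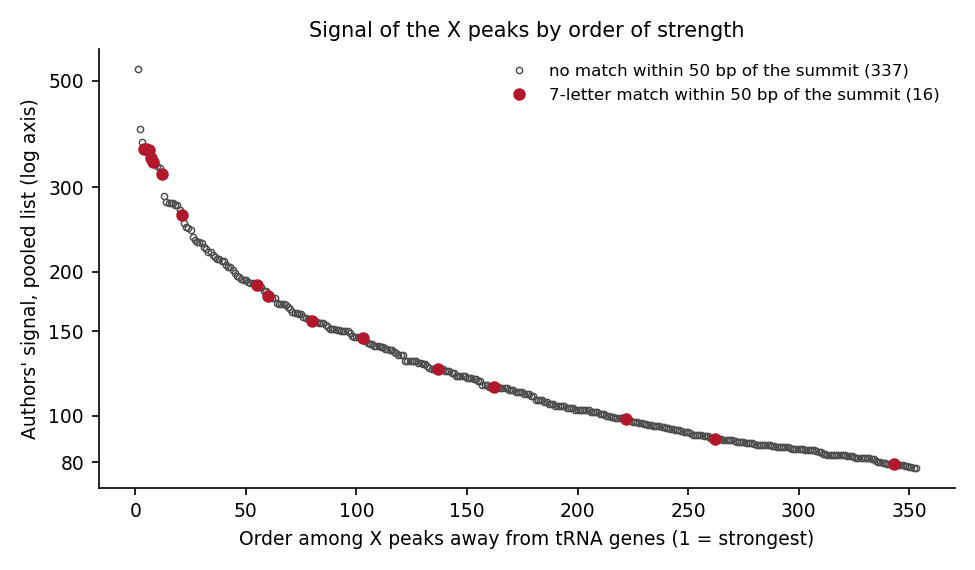
Each point is 1 of the 353 X peaks, placed by its order among them (x axis, 1 = strongest) and its signal as given by the authors in the pooled list (y axis, log scale). Filled points are the 16 peaks with CGCAGGG within 50 bp of the summit, and 7 of them are among the 25 strongest.

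**Figure D2:**
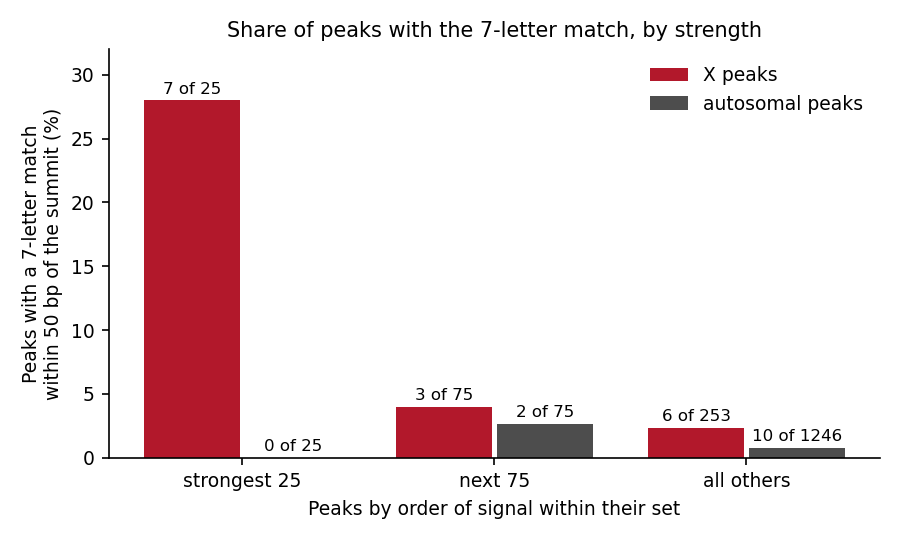
Bars give the share of peaks with CGCAGGG within 50 bp of the summit, for X peaks (left bar of each pair) and autosomal peaks (right bar), split by order of signal within each set. The share is 28.0% in the 25 strongest X peaks and 0 in the 25 strongest autosomal peaks.

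The strongest member was not one of these. It lay at chrX:11605656-11606428, 522 bp upstream of ftt-2, which encodes a 14-3-3 protein. A second member, with its summit 732 bp upstream, was called in the same region. Their pooled signals were 529 (rank 3) and 372 (rank 16), and in each replicate both summits fell in 1 region, with a signal of 212 in replicate 1 and 323 in replicate 2. The second strongest, at chrX:5811950-5812442, lay inside the non-coding RNA gene F13D11.7, with a pooled signal of 396, 169 in replicate 1 and 230 in replicate 2. No stretch with 2 or fewer differences from the 12 letters was in the windows of these peaks, printed here in lower case for contrast with the windows above.
Peak nearest ftt-2, chrX:11605891-11605991, plus strand: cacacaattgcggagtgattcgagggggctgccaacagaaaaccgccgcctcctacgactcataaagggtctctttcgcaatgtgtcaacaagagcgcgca
Peak nearest F13D11.3, chrX:5812177-5812277, plus strand: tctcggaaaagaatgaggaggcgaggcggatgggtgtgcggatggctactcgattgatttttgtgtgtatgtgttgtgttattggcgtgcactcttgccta

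The next 5 members in order carried CGCAGGG, as did the member of rank 40. The peak at chrX:4209090-4209446, in intergenic sequence 1816 bp upstream of F20B6.9, had a signal of 361 in the pooled list, 161 in replicate 1 and 200 in replicate 2. The peak at chrX:6296333-6296755 lay in an intron of mom-1, which encodes a protein needed for secretion of Wnt ligands, and had 360, 154 and 204 in the same order. That nearest nspc-17, at chrX:14525596-14526094 and 742 bp upstream of the start, had 358, 156 and 200. In replicate 1 these 3 had the ranks 17, 24 and 22, and replicate 2 gave them 25, 20 and 24, so they were near the top of both lists. The peaks nearest W02H3.3 (chrX:11093916-11094395, intergenic), in the intron of Y41G9A.17 (chrX:2996828-2997300) and nearest gtr-1 (chrX:806574-806809, intergenic) had pooled signals of 345, 338 and 320. Replicate 1 ranked them 46, 27 and 66, and replicate 2 gave 19, 32 and 23.

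The other members among the 20 strongest were at varied places. Gene-start windows held peaks at F09C8.2 (signal 332), at sms-2, a sphingomyelin synthase gene (278), and at ain-1, whose product is part of the microRNA silencing complex (269). Introns held peaks in ldb-1, which encodes a partner of LIM-homeodomain proteins (279), and in nhr-3, a nuclear receptor gene (278). The single member in a coding exon lay in pks-1, a polyketide synthase gene (278). Intergenic peaks were nearest the starts of K02D3.1 (336), C30E1.4 (329), ZK899.6 (287) and sma-9 (275), the last a zinc-finger gene of the body-size BMP pathway. A peak in the non-coding RNA gene F52H2.13, nearest the start of tbc-12, a Rab GTPase-activating protein gene, had 275. The third strongest member in a non-coding exon, in F13D11.13, had 192. It was a further summit called in nearly the same region as the peak in F13D11.7.

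The authors' signal did not differ past the threshold between X and autosomal peaks as a whole. It ran from 77.8 to 529 over the members with a median of 111 (quartiles 89.2 and 152), and from 77.7 to 769 over autosomal peaks with a median of 109. The median of both sets together was passed by 180 of 353 X peaks (51.0%) and 669 of 1346 autosomal peaks (49.7%), with an odds ratio of 1.05 (two-sided Fisher's exact test, p = 0.676). Of the strongest 50 peaks of the list 12 were members and 33 autosomal, and of the strongest 100, 25 and 67. X peaks made up 26.7% and 27.2% of those away from tRNA genes in these sets, which are small and were not tested.

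There were somewhat more X peaks than the length of X would give. Members made up 20.8% of the peaks away from tRNA genes (18.9 to 22.8%), against 17.7% of nuclear bases, a ratio of 1.18 (two-sided exact binomial test, p = 0.00104). This came to 19.9 peaks per Mb on X and 16.3 on the autosomes. The binomial test and its interval count each summit as separate. Some summits shared a region, as did those upstream of ftt-2, so the p-value is likely too small and the interval too narrow. How often autosomal summits shared a region was not counted. X carries fewer protein-coding genes per Mb (154, against 209 on the autosomes), and against the number of genes the ratio was 1.52. In the pooled relaxed list, which holds weak regions too, X had 4438 of the 22155 regions away from tRNA genes. Of these X regions 7.95% were peaks of the thresholded list, against 7.60% of the autosomal regions and 7.67% of all regions, and the share of X was much the same before the threshold was applied. Along X, the 17 full Mb bins held 12 to 29 members each, with a median of 19.0. The median spacing of neighbouring summits was 31151 bp (199 to 244871 bp), and 18 of 352 neighbours were less than 500 bp apart.

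Both replicates held nearly all members. Replicate 1 had no region at 3 of the summits and replicate 2 at 0. Of the members, 288 (81.6%) were among the 1841 strongest regions of replicate 1 and 299 (84.7%) among those of replicate 2, close to the 80.8% and 85.6% of autosomal peaks. Over the 350 members with a region in both, Spearman's rho of the signals was 0.633, and it was 0.568 over 1341 autosomal peaks. These are descriptions over peaks of the same 2 libraries, chosen by their pooled signal.

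**Figure D3:**
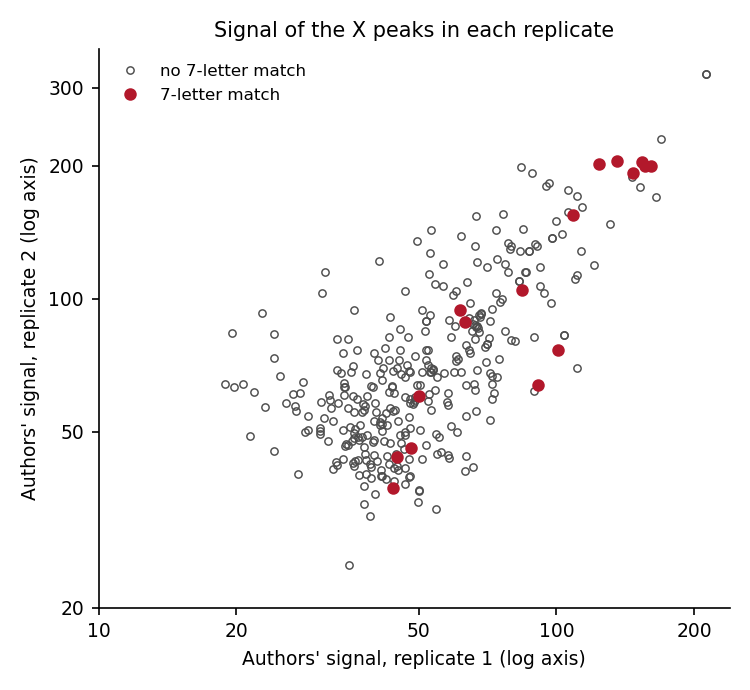
Signal of each X peak in replicate 1 (x axis) and replicate 2 (y axis), both on log scales, for the 350 peaks with a region in both. Filled points have CGCAGGG within 50 bp of the summit, and the upper group of these lies with the strongest peaks of both replicates.

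Most members lay in front of protein-coding genes. A gene-start window was taken from 1000 bp upstream to 500 bp downstream of an annotated start, and 197 members had their summit in one (55.8%, 50.5 to 61.1%), against 802 autosomal peaks (59.6%, 56.9 to 62.2%). Such windows cover 21.9% of X and 27.4% of the autosomes, so the shares were 2.55 times and 2.18 times those of bases. Intergenic sequence held 78 members (22.1%), against 233 autosomal peaks (17.3%), introns 46 (13.0%) against 216 (16%), and non-coding or untranslated exons 31 (8.78%) against 93 (6.91%). Coding exons, which outside the windows make up 15.9% of X, held 1 member (0.283%), against 2 autosomal peaks (0.149%). No location passed the test between X and autosomal peaks. The odds ratio was 0.857 for gene-start windows and 1.35 for intergenic sequence (Fisher's exact tests, adjusted p = 0.312 and 0.221 over 5 locations).

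**Figure D4:**
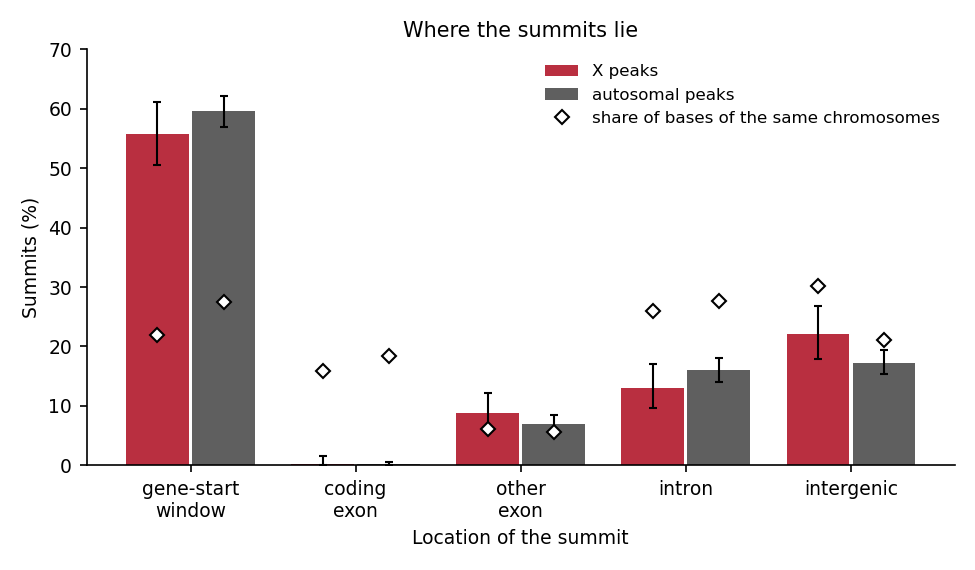
Share of summits in each location for X peaks (left bar) and autosomal peaks (right bar), with 95% exact binomial intervals for counting error. Diamonds give the share of bases of the same chromosomes, which for gene-start windows is 21.9% of X and 27.4% of the autosomes.

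Within gene-start windows, X peaks differed from autosomal ones in the arrangement of the genes. Only 17 members lay in the windows of genes that start on opposite strands (4.82% of members, 2.83 to 7.60%), against 315 autosomal peaks (23.4%, 21.2 to 25.8%). The odds ratio was 0.166 (two-sided Fisher's exact test, p = 2.69e-18; a comparison added after the data were seen). Of the peaks in gene-start windows alone the shares were 8.63% on X and 39.3% on the autosomes (Fisher's exact test, p = 8.74e-19). Such paired windows are themselves rarer on X, with 0.862% of bases against 3.20% on the autosomes. Relative to those bases, peaks were 5.59 times as frequent on X and 7.31 times on the autosomes, so the bases available differed in the same direction as the counts. The strongest of the 17 lay between trap-2, a subunit of the translocon-associated complex, and ile-2, a lectin of export from the endoplasmic reticulum (signal 230 pooled, 84.4 in replicate 1, 144 in replicate 2). It was followed by peaks in the windows of C27C12.4 and C27C12.1 (177) and of glit-1 and dnj-14, a J-domain chaperone gene (172).

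Summits on X were farther from gene starts. The median distance to the nearest protein-coding gene start was 712 bp on X and 461 bp on the autosomes. The joint median of 502 bp was exceeded by 197 X peaks (55.8%) and 651 autosomal peaks (48.4%), an odds ratio of 1.35 (two-sided Fisher's exact test, p = 0.0142). Among the 920 strongest peaks of the list the difference did not pass (odds ratio 1.26, Fisher's exact test, p = 0.204). Gene starts are themselves sparser on X, with 154 protein-coding genes per Mb against 209 on the autosomes. Gene-start windows cover 21.9% of X and 27.4% of the autosomes. The part of gene density in the difference of distances was not tested. Less than 200 bp from a start lay 79 X summits (22.4%) and 370 autosomal ones (27.5%), and more than 5000 bp away lay 8.78% of X summits and 8.54% of autosomal ones. The nearest start was downstream of the summit for 265 X peaks (75.1%) and 987 autosomal peaks (73.3%). Among the 25 strongest members the median distance was 2487 bp, among the next 75 it was 513 bp, and among the other 253 it was 683 bp.

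X summits were richer in G and C. Within 50 bp of the summit the median G+C was 49.5% on X and 47.5% on the autosomes, and 211 X peaks (59.8%) were above the joint median of 47.5%, against 610 autosomal peaks (45.3%). The odds ratio was 1.79 (two-sided Fisher's exact test, p = 1.57e-06). In windows centred 400 bp to one side the order was the other way, with medians of 33.7% beside X peaks and 35.6% beside autosomal peaks. The rise was also broader on X. The mean G+C in the 20 bp bins centred 90 bp upstream and downstream along the chromosome was 43.9% and 43.9% at X peaks, and 39.3% and 39.8% at autosomal peaks.

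**Figure D5:**
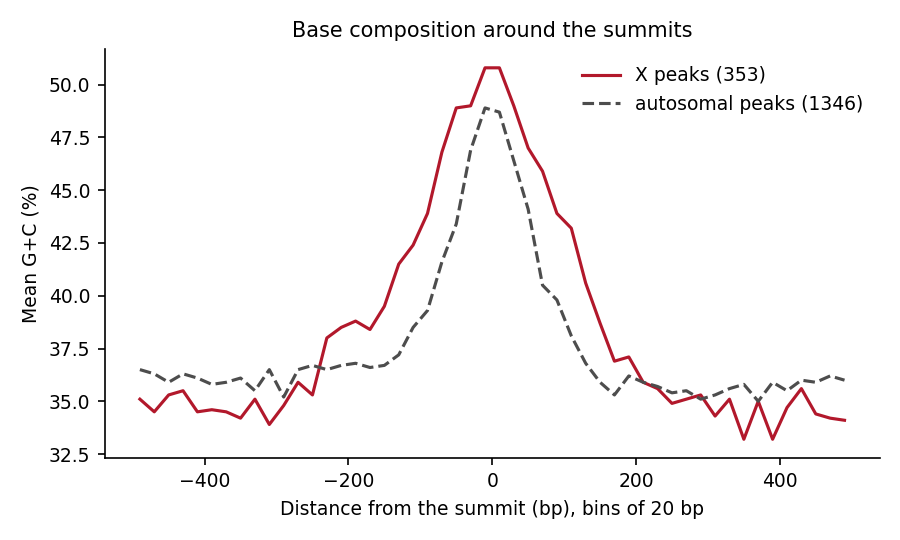
Mean G+C in 20 bp bins by distance from the summit, for the 353 X peaks (solid line) and the 1346 autosomal peaks (dashed line). The X profile is higher near the summit, broader, and lower in most bins far from it, where it falls to 34.1% in the last bin, against 36% for autosomal peaks.

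Repeats of GA, CA and CG were more frequent at X summits than beside them. Their shares were also higher at autosomal summits than beside them, where no test was made. Each was searched on both strands within 50 bp of the summit and in an equally long flank window with its centre 400 bp away. Both windows of each X peak were compared with exact McNemar tests adjusted over the 11 sequences. GAGAGAG was in 42 X summit windows (11.9%) and 3 flank windows (0.850%; exact McNemar adjusted p = 2.37e-09), and in 14.2% of autosomal summit and 1.04% of autosomal flank windows. CACACAC was in 42 X summit windows (11.9%) and 4 flank windows (1.13%; exact McNemar adjusted p = 5.93e-09), and in 8.92% of autosomal summit and 1.63% of autosomal flank windows. GCGCGC was in 23 X summit windows (6.52%) and 2 flank windows (0.567%; exact McNemar adjusted p = 5.34e-05), and in 9.81% of autosomal summit and 0.446% of autosomal flank windows. None of these 3 passed the test between X and autosomal summits (odds ratios 0.817, 1.38 and 0.641, adjusted p = 0.327, 0.166 and 0.166 by Fisher's exact tests). CGCAGGG was in 16 X summit windows (4.53%) and 1 flank window (0.283%; exact McNemar adjusted p = 6.04e-04). On the autosomes it was in 0.892% of summit and 0.297% of flank windows. Windows of the same length along the whole of X held GAGAGAG in 1.25%, CACACAC in 1.21%, GCGCGC in 0.572% and CGCAGGG in 0.156% of cases. The following windows, of strong members with such repeats, have the GAGAGAG (first 2) or CACACAC (the last) matches in capitals on either strand.
Peak nearest F09C8.2, chrX:16147903-16148003, plus strand: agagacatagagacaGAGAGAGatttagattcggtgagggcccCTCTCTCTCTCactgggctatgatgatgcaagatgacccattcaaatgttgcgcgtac
Peak nearest tbc-12, chrX:2536564-2536664, plus strand: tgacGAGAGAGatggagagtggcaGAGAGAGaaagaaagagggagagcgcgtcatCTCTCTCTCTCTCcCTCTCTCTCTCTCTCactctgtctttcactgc
Peak nearest T13C5.6, chrX:6207806-6207906, plus strand: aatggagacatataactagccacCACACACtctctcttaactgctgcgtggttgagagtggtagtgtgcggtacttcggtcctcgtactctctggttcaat
The first lay 931 bp upstream of F09C8.2 and the second inside the non-coding RNA gene F52H2.13. Of the 42 members with GAGAGAG, 33 were in gene-start windows, and of the 42 with CACACAC, 24 were. Both were present in 6 members.

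The letters that homeodomain proteins prefer were rarer at X summits than beside them in the deposited list, but not past the threshold under several of the alternatives. TAATTA was in 5 X summit windows (1.42%) and 21 flank windows (5.95%; adjusted p = 0.00457, exact McNemar test), and its longer form TTAATTA in 1 (0.283%) and 12 (3.40%; adjusted p = 0.00537). Both calls were lost with replicate 1 alone and among the 920 strongest peaks, and that of TAATTA also with replicate 2 alone (exact McNemar tests, adjusted p = 0.0923 to 0.379 for TAATTA and 0.115 and 0.379 for the longer form). TAATTA was in 2.90% of autosomal summit windows, and the 2 sets did not differ past the threshold (Fisher's exact test, adjusted p = 0.173). These AT-rich letters stand beside summits of high G+C, and the part of base composition in these counts was not tested. TTTCAG, the consensus of worm 3′ splice sites, was in 10 X summit windows (2.83%) and 53 flank windows (15%; exact McNemar adjusted p = 3.89e-09). TGATAA, the GATA-factor core, was in 9 (2.55%) and 26 (7.37%; exact McNemar adjusted p = 0.00626, and 0.151 among the 920 strongest peaks). CACGTG, the E-box of bHLH factors, was in 15 (4.25%) and 6 (1.70%), and CCGCCC had the same counts, neither past the threshold (exact McNemar tests, adjusted p = 0.0862 for each). GTTCGA, from the inner promoter of tRNA genes, was in 8 (2.27%) and 10 (2.83%; exact McNemar adjusted p = 0.815). Rarer letters at summits were not particular to X. At autosomal peaks TTTCAG was in 4.68% of summit and 22.4% of flank windows, TGATAA in 2.38% and 8.17%, and TAATTA in 2.90% and 5.27%.

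Genes that make non-coding RNA were near many members. A gene of the ncRNA biotype, a mixed class of transcripts in the annotation, lay within 500 bp of 93 X summits (26.3%) and of 262 autosomal summits (19.5%), an odds ratio of 1.48 (Fisher's exact test, adjusted p = 0.0171 over 8 biotypes). X is denser in such genes, whose surroundings take up 11.7% of X and 5.65% of the autosomes, so relative to bases the shares were 2.25 times on X and 3.44 times on the autosomes. Among the 920 strongest peaks of the list the odds ratio was 1.23 (Fisher's exact test, adjusted p = 0.444), and with the strongest regions of replicate 1 alone it was 1.33 (adjusted p = 0.103). Inside such a gene lay 54 X summits and 121 autosomal summits, and 29 of the 31 members in non-coding or untranslated exons were of this kind. Genes of snoRNAs, which guide modification of ribosomal RNA, were within 500 bp of 3 X summits (0.850%) and 78 autosomal summits (5.79%; odds ratio 0.139, Fisher's exact test, adjusted p = 1.23e-04). With the strongest regions of replicate 1 alone the odds ratio was 0.0525 (Fisher's exact test, adjusted p = 1.26e-05). X has 33 of these genes and the autosomes 313. Their surroundings take up 0.206% of X and 0.411% of the autosomes, so both shares of summits were above those of bases. Genes of piRNAs, small RNAs of the germline, were near 2 X summits (0.567%) and 44 autosomal summits (3.27%; odds ratio 0.169, Fisher's exact test, adjusted p = 0.0111), with 162 such genes on X and 15201 on the autosomes. The surroundings of piRNA genes take up 0.910% of X and 5.72% of the autosomes. The bases available thus differed in the same direction as the counts, and both shares of summits were below those of bases. The piRNA difference did not pass with replicate 1 alone (odds ratio 0.421, Fisher's exact test, adjusted p = 0.118) or among the 920 strongest peaks, where no X summit was near such a gene (adjusted p = 0.267). MicroRNA genes were near 4 X summits (1.13%) and 14 autosomal summits (1.04%; Fisher's exact test, adjusted p = 0.777). The strongest of these 4 lay 269 bp from mir-54 (signal 192), and another, of rank 1735, lay 339 bp from mir-56, and both were nearest the start of F09A5.3.

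The members fell in the start windows of 206 of the 2731 X-linked protein-coding genes (7.54%, 6.58 to 8.60%), against 1115 of 17242 autosomal genes (6.47%, 6.10 to 6.84%) and 6.61% of all 19973. The gene lists below are described by counts, to be read against the 7.54% of X-linked genes. Of the sex determination and dosage compensation genes on X, 2 of 6 held a peak in a start window. One was sdc-2, which brings the complex to X, with a summit 398 bp upstream of its start (chrX:11522084-11522533, signal 121, 50.8 in replicate 1 and 68.2 in replicate 2). The other was ceh-39, a ONECUT homeobox gene that counts as an X signal element in sex determination, with a summit 180 bp upstream (chrX:1856127-1856576, signal 102, 36.7 and 59.4). Both peaks were of middling or low rank, 755 and 1108. The peak at ceh-39 also held a place with 2 differences from the 12 letters, C2A and G8C, next to its summit. The other X signal elements searched, sex-1, a nuclear receptor gene, and fox-1, an RNA-binding protein gene, held no peak in their start windows, nor did their target xol-1, the switch gene that is kept off in hermaphrodites, or sdc-1. A member of rank 821 lay inside sex-1 (chrX:10204286-10204735, signal 116), in an intron 910 bp downstream of the start, and the member nearest xol-1 was 12049 bp from its start. The nearest region to the start of xol-1 in the pooled list ranked 3938 there.

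Genes of translation and protein folding held peaks. All 3 X-linked genes of the translation list did: eef-1A.2, an elongation factor gene (signal 229, 90.0 in replicate 1 and 133 in replicate 2, summit 395 bp upstream), ife-4 and ife-2 (105), both of cap-binding initiation factors. Of the ribosomal protein genes 1 of 2 did, rpl-11.2 (167, with 54.3 in replicate 1 and 108 in replicate 2). Of the chaperone genes 2 of 5 did, dnj-14 (172) and hsp-3, the BiP gene of the endoplasmic reticulum (171). Of the genes of secretion and vesicle traffic 3 of 17 did (17.6%): sec-3 (196) of the exocyst, sec-16A.2 (176) and rab-14 (78.9). The peak at rab-14 also lay in the start window of nipi-3. These lists are short, and their counts were not tested.

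Genes of differentiated cells and of regulators were mixed. Of the muscle genes 3 of 11 held a peak in a start window: mup-2, which encodes troponin T (124), tnt-2, another troponin T gene (84.9), and unc-98, whose product sits at muscle attachments (81.5). The peak at unc-98 was nearest the start of F08C6.18. Of the nuclear receptor genes 3 of 23 held a peak in a start window (13.0%): nhr-1 (204, with 62.0 in replicate 1 and 139 in replicate 2), nhr-48 (159) and nhr-32 (93.3). The stronger peak in an intron of nhr-3 (278) lay outside its start window and is not counted. Of the neuronal genes 2 of 18 held a peak in a start window (11.1%), syd-2, a liprin of synapses (186), and unc-115, an actin-binding axon guidance gene (150). Of the extracellular matrix genes 1 of 9 did, the syndecan gene sdn-1 (91.1), and of the histone genes 1 of 4, his-24, a linker histone gene (145). The peak at his-24 was also one of the 16 with CGCAGGG, with its summit 7 bp upstream of the start. The homeobox list, the family of COG-1 itself, had a peak at 1 of 28 genes (3.57%), ceh-39, and the ion channel list at 2 of 40 (5.00%), the glutamate receptor genes glr-6 (108) and glr-8 (95.2). The peak at glr-8 was nearest the start of cdf-1, and that at glr-6 also lay in the start window of asg-2. No peak was found at the start of any of the 27 collagen genes (0), the 33 chemoreceptor genes (0) or the 10 embryonic fate factor genes (0) on X. Of the last list, daf-12 held a peak in an intron, outside its start window (138).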

How the data were processed

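The data are ChIP-seq region lists of 2 biological replicates. Per the labels, the deposited lists were made for ce11 and ce10, per replicate and pooled, from alignments with a possible control; for the aligner, the caller and the threshold, nothing is given in the sources used here. Each region has a signal value from the authors, whose scaling to depth is unknown, and which was used only to rank and describe regions within a list. The deposited −log10 q-values were capped at 3.45, which 261 members reached, and were not used further. The thresholded list equals the 1841 strongest pooled regions, so membership says nothing of how alike the replicates ranked a peak. Depth per library was not used, so intervals cover counting error only, and peaks are not replicates: p-values concern counts of places in these libraries, not variation between animals.

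Locations, distances and biotypes came from Ensembl release 115 on WBcel235, and sequences from its RefSeq genome; of all ce11 regions, 0 passed a chromosome end. Locations were assigned in the order gene-start window, coding exon, other exon, intron, intergenic. Tests were two-sided and exact (scipy 1.17.1, Python 3.11.15, numpy 2.4.6, pandas 2.3.3; figures with matplotlib 3.10.9), with Benjamini-Hochberg adjustment within each family, and scripts were tested on simulated data. Members, sequences and gene lists were chosen with earlier results of these data known. Named genes are those at the 20 strongest members, the 3 strongest per location, up to 4 per list and all X signal elements; sex-2 matched no gene of the annotation. Other genes were named after their values were seen.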

Additional observations from a re-analysis of the deposited data

How the results depend on the processing

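Results were recomputed with tRNA distances of 250 and 1000 bp, with the 920 strongest peaks of the list, and without each replicate in turn (the 1841 strongest regions of the other); for CGCAGGG sites in peaks and for summits against flanks these repeats were added after the data were seen. No paired analysis was possible because both samples are of 1 group. The tRNA distances of 250 and 1000 bp gave 355 and 352 X peaks, nearly the same peaks as the 500 bp rule. Repeats with these distances could hardly differ from the main results, so they say little about robustness. They are included in the counts of repeats given below. Of 69 repeats over 11 results, 61 kept their direction and their side of the threshold or stayed within counting error. The exceptions were these. Among the 920 strongest, the distance to gene starts had an odds ratio of 1.26 (Fisher's exact tests throughout, p = 0.204), the ncRNA genes 1.23 (adjusted p = 0.444), and X-linked genes with a peak came to 3.88%, as fewer peaks were counted. With start windows from 500 bp upstream to 250 bp downstream that share was 6.01%, by the narrower window. CGCAGGG inside gene-start windows had an odds ratio of 2.49 (exact p = 0.104). Without replicates 1 and 2 in turn, the intergenic odds ratio was 1.24 to 1.51 (exact tests, adjusted p = 0.339 and 0.0254), that of ncRNA genes 1.33 to 1.58 (adjusted p = 0.103 without replicate 2), and that of signal above the joint median 0.994 to 1.08, reversed without replicate 2 (p = 1.00). That of piRNA genes, 0.169, was 0.421 without replicate 2 and did not pass (exact test, adjusted p = 0.118), nor did it among the 920 strongest (adjusted p = 0.267). That of snoRNA genes, 0.139, was 0.0525 without replicate 2. Of 55 repeats of X summits against flanks, 6 lost the call, 3 for TAATTA, 2 for TTAATTA and 1 for TGATAA, and 1 gained it (CCGCCC without replicate 1, exact McNemar adjusted p = 0.0264). The cause was not tested. The CGCAGGG odds ratio of 5.28 ran from 3.72 (200 bp to either side) to 12.7 over peaks of all locations, and passed in each. The X share was 1.15 to 1.52 times its expectation, the ce10 list (427 of 1834 peaks on X, without the tRNA rule) included. Without input or untagged worms among the samples, the part of the signal that does not need COG-1 was not measured here.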

Other observations

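A group of X-linked genes for folding and export in the endoplasmic reticulum held peaks at their starts. These were listed after it was seen which genes held peaks, so no count of them is evidence of anything beyond the values given. Besides trap-2, ile-2, hsp-3 and sec-16A.2, the genes were serp-1.1 (signal 186), the disulfide isomerase genes pdi-2 (171) and pdi-6, uggt-1 of glycoprotein quality control (158), the stress sensors atf-6 (127) and pek-1 (80.1), and the cargo receptor gene sft-4 (126).

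Without any list of letters, the string of 8 letters in most X summit windows was AGACGCAG, in 29 of 353 (8.22%) and 0 flank windows, against 192 of 1346 autosomal summit windows (14.3%). The string with the largest difference in favour of X was CCTGCGCG, part of the reverse complement of the 12 letters described above, in 14 X windows (3.97%) and 2 autosomal windows (0.149%). These strings were picked for their counts and were not tested.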
